A study of Mus musculus with 14 samples.

Results

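The genes described here are 10 parts of the machinery with which cells detect bacterial endotoxin and related microbial molecules, taken by symbol from the deposited liver RNA-seq count table of 25212 genes. They are *Lbp*, *Cd14*, *Ly96*, *Tlr4*, *Tlr2*, *Tlr1*, *Tlr5*, *Myd88*, *Ticam1* and *Irak3*, and all 10 had enough counts to be tested. The study asked whether sending bile straight to the ileum gives obese mice metabolic benefits like those of gastric bypass, and RNA was taken from 14 livers of male C57BL/6 mice made obese on a high-fat diet. The 5 DIO (diet-induced obese) mice had no operation. The 4 GB-IL mice had the gallbladder joined to the ileum with the common bile duct ligated, so that bile entered the distal gut. The 5 RYGB mice had a Roux-en-Y gastric bypass, in which food and bile meet below a small stomach pouch. Operated mice were sampled 8 weeks after surgery. All 3 groups shared the strain, the sex and the fatty diet. The DIO mice were not operated on, so the effect of the anastomosis itself and of surgery in general cannot be told apart in these comparisons. Each liver was a separate mouse, and livers are named by group and number.

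Endotoxin, or lipopolysaccharide (LPS), is the outer membrane glycolipid of Gram-negative bacteria. In blood it is picked up by LPS-binding protein (LBP), which hepatocytes secrete as an acute-phase protein. LBP passes it to CD14, a protein carried mainly by macrophages, monocytes and neutrophils, and CD14 loads it onto MD-2, the product of *Ly96*, bound to Toll-like receptor 4 (TLR4). TLR4 signals through the adaptor MyD88 towards NF-κB and through TRIF, the product of *Ticam1*, towards interferons. TLR2, for example when paired with TLR1, detects bacterial lipoproteins and TLR5 detects flagellin, both through MyD88. IRAK-M, the product of *Irak3*, is a kinase-like protein that brakes MyD88 signalling. Portal blood brings gut bacterial products to the liver first, where Kupffer cells, the resident macrophages, take them up.

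The promoters of *Tlr2* and *Irak3* are shown because both genes were higher in GB-IL than in DIO livers, and NF-κB is the factor at the end of the pathway. RefSeq start sites (build GRCm38.p6) were given for 6 of the 10 genes, with 8 start sites in all. The 6 are *Tlr2*, *Tlr1*, *Tlr5*, *Myd88*, *Ticam1* and *Irak3*. No start site was at hand for *Cd14*, *Lbp*, *Tlr4* and *Ly96*, so their promoters were not searched. The bases below lie upstream of the start site and outside the GENCODE gene, run 5′ to 3′ on the gene's own strand, the minus strand, and carry the NF-κB consensus (kappa-B) match in capitals. The *Tlr2* bases are chr3:83841768-83841858, from 250 to 160 bases upstream, and the *Irak3* bases are chr10:120202131-120202380, the 250 bases next to the start site that lies at the 5′ end of the gene.
Tlr2: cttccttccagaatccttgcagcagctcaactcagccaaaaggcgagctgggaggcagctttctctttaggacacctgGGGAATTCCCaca
Irak3: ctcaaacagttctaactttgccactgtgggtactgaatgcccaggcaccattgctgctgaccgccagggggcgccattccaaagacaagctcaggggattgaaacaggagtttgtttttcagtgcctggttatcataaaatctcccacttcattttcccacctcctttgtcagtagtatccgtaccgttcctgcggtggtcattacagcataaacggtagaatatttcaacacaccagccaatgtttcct
The kappa-B match of *Tlr2* lay 172 to 163 bases upstream. Searched on both strands over the 250 bases upstream of 32851 RefSeq start sites, the kappa-B consensus was found in 5% of them, and among the 6 genes only in *Tlr2*. The AP-1 motif TGANTCA was found in 6.75% of all promoters and in none of the 6 genes. The core of PU.1, a myeloid factor, written GAGGAA, was found in 23.3% of all promoters and in *Tlr1* and *Ticam1*. These are matches of letters in a short window and not measured binding.

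Library totals ran from 18440676 to 21473005 counts in DIO, from 19231679 to 26131278 in GB-IL and from 18223135 to 28656631 in RYGB livers. Levels are CPM, counts per 1000000 counts of the library, scaled by the TMM method, a normalisation that centres the libraries on the bulk of genes. Of all genes, 14252 passed a filter on low counts. The GB-IL livers were scattered. Median correlations of log CPM with the rest of the group were 0.8748, 0.9175, 0.9175 and 0.8639 in GB-IL livers 1 to 4. In DIO and RYGB livers they were 0.9521 to 0.9769. Liver GB-IL 4 lay with the DIO livers on the first principal component of all tested genes, which held 48.5% of the variance. It lay at -35.3, within the DIO range of -45.7 to -21.9, while GB-IL 1, 2 and 3 lay at 134.3, 106.1 and 20.1. GB-IL 3 was close to RYGB 5, at 17.4. The mitochondrial share of counts was 9.376% in GB-IL 4, the highest of all 14, and 6.463%, 3.99% and 3.518% in GB-IL 1, 2 and 3, against 5.583% to 9.231% in DIO and 7.021% to 8.613% in RYGB livers. GB-IL 2 and 3 thus lay below every DIO and RYGB liver, and the part of this share in the differences below was not tested. Each comparison is given with and without GB-IL 4. That liver was set apart on these same values, and leaving it out removes the GB-IL liver most like DIO. Differences found without GB-IL 4 are therefore descriptive and no independent support. The labelled tissue was present in every library, with 10 hepatocyte markers such as *Alb* and *Apoa1* summing to between 114155 and 175872 CPM.

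Of the 10 genes, *Cd14*, *Irak3* and *Tlr2* were higher in GB-IL than in DIO livers, by 37.3-, 5.2- and 3.35-fold, with a false discovery rate (FDR) under 0.05 in edgeR's quasi-likelihood test. That is 3 of 10 called, all higher, where 3.26% of all genes tested were called in either direction and 3.15% as higher. *Tlr4* and *Ly96*, the receptor complex itself, and *Ticam1* differed by less than the spread between livers. At an unadjusted p below 0.05 there were 7 of 10, against 23.1% of all genes. On the log2 scale the 10 genes had a median fold change of 0.79, and all tested genes one of 0.04. The 10 genes were chosen with earlier results of these data known, so these shares describe them and are no independent test. DESeq2 called 4 of the 10, adding *Lbp*, where it called 9.07% of all genes, and limma's voom 5, adding *Tlr1* as higher and *Tlr5* as lower, where it called 4.13%. No gene of the 10 was called between RYGB and DIO livers.

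**Figure D1:**
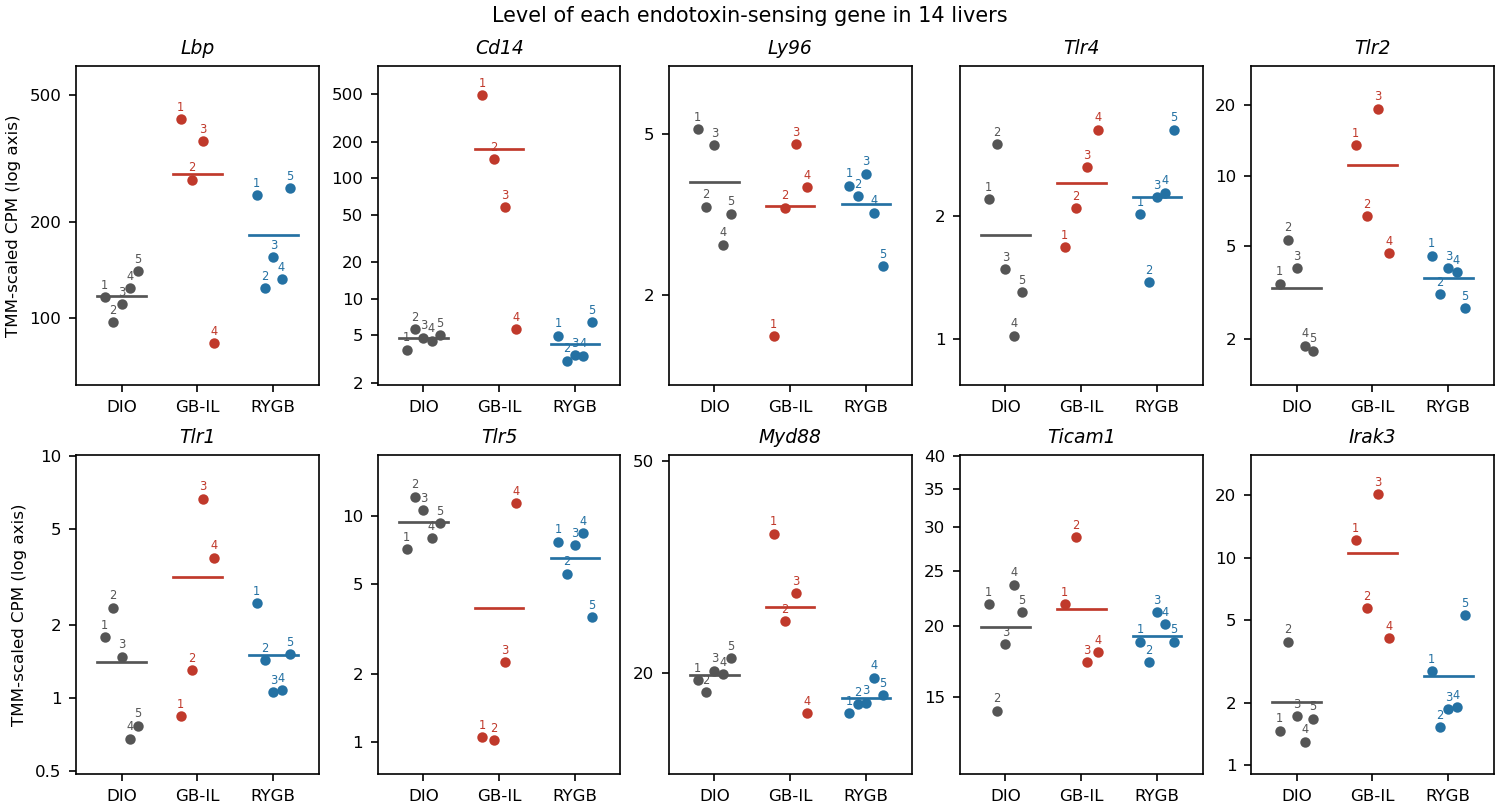
Level of each of the 10 genes in each liver, as TMM-scaled CPM on a log axis, with livers numbered within DIO, GB-IL and RYGB and a bar at the group mean. For *Cd14*, GB-IL 1 to 3 lie between 57.7 and 493 CPM and every other liver between 3.06 and 6.37 CPM.

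*Cd14*, the co-receptor that hands LPS to TLR4, read 3.77, 5.56, 4.73, 4.47 and 4.95 CPM in DIO livers 1 to 5. In GB-IL livers 1 to 4 it read 493, 145, 57.7 and 5.57 CPM. In RYGB livers 1 to 5 it read 4.92, 3.06, 3.38, 3.35 and 6.37 CPM. GB-IL 1, 2 and 3 thus stood at 105, 30.9 and 12.3 times the DIO mean, while GB-IL 4 stood at 1.19 times that mean and only just above the highest DIO liver. The groups GB-IL and DIO did not overlap, but RYGB 5 lay above GB-IL 4. In raw reads the gene ranged from 72 to 113 counts in DIO livers and reached 9388 in GB-IL 1. The fitted log2 fold change between GB-IL and DIO was 5.22 ± 0.822 (SE; adjusted p = 0.0278, edgeR's quasi-likelihood test, Benjamini-Hochberg adjusted over all genes), and its 95% interval ran from 11.1- to 126-fold. The SD over the 4 GB-IL livers, 219.5 CPM, exceeded their mean of 175 CPM. Without GB-IL 4 the log2 fold change was 5.61 and the adjusted p 8.46e-05 (edgeR). Without GB-IL 1 it was 3.88 and the adjusted p 0.0599 (edgeR), and the call was likewise lost without GB-IL 2, at 0.0581, and without any single DIO liver, at 0.0618 to 0.0942. Without DIO 1, edgeR called 0 of all genes tested, so that loss was not particular to *Cd14*. Over all 20 alternatives the adjusted p ran from 2.99e-10 to 0.0942.

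*Tlr4*, the signalling receptor for LPS (chr4:66827584-66930284 on the plus strand, GRCm38, GENCODE M21), read 2.2, 3, 1.48, 1.02 and 1.3 CPM in DIO livers. It read 1.68, 2.09, 2.63 and 3.25 CPM in GB-IL livers and 2.02, 1.38, 2.22, 2.28 and 3.25 CPM in RYGB livers. The 3 groups overlapped, and the highest *Tlr4* of the GB-IL livers was in GB-IL 4, whose *Cd14* was the lowest of the 4. The fold change between GB-IL and DIO was 1.34, with a 95% interval of 0.813 to 2.22 and an adjusted p of 0.436 (edgeR's quasi-likelihood test). These counts were low, from 18 to 94 reads a liver, and differences inside that interval were not detectable. The SE of the log2 fold change was 0.339, beside 0.361 for *Lbp*, which had at least 1975 reads in every liver. The parts of read depth and of spread between livers in the interval were not tested.

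*Ly96*, whose product MD-2 holds the lipid in the TLR4 complex, read 5.13, 3.3, 4.68, 2.66 and 3.17 CPM in DIO livers and 1.58, 3.28, 4.71 and 3.69 CPM in GB-IL livers. In RYGB livers it lay between 2.35 and 3.98 CPM. The liver with the most *Cd14*, GB-IL 1, had the least *Ly96* of all 14. The fold change between GB-IL and DIO was 0.877, with a 95% interval of 0.562 to 1.37 and an adjusted p of 0.707 (edgeR).

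*Lbp*, the secreted carrier of LPS, had the highest group mean CPM of the 10 genes in all 3 groups, although *Cd14* exceeded it in GB-IL 1. It read 116, 97.2, 110.5, 124 and 140.0 CPM in DIO livers, 419, 271, 358 and 83.4 CPM in GB-IL livers, and 242, 124, 155, 132 and 255 CPM in RYGB livers. GB-IL 1 to 3 lay above every DIO and RYGB liver, whereas GB-IL 4 lay below every other liver. The GB-IL and DIO groups differed by 1.27 ± 0.361 on the log2 scale (SE; adjusted p = 0.0667, edgeR), which missed the threshold. Without GB-IL 4 the fold change was 2.96 and the adjusted p 0.00142 (edgeR). Without GB-IL 1 the log2 fold change was 1.00 and the adjusted p 0.221 (edgeR). In RYGB livers 3 of 5 lay above every DIO liver, with a fold change of 1.54 (95% interval 0.932 to 2.56) and an adjusted p of 0.628 (edgeR).

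Measured per kilobase of exon, so that genes can be set side by side, the 4 LPS-recognition genes held different ratios in the livers. *Cd14* stood at 5.5 to 14.1 times *Tlr4* in DIO livers. The same ratio was 941, 223, 70.4 and 5.5 in GB-IL livers 1 to 4 and 4.72 to 7.8 in RYGB livers. The ratio of GB-IL 4 equalled the lowest DIO value, and the other GB-IL livers were all above the DIO and RYGB ranges. The group mean of *Tlr4* per kilobase was 0.324 ± 0.144 CPM in DIO livers (SD, n = 5), 0.434 ± 0.122 in GB-IL livers (n = 4) and 0.401 ± 0.121 in RYGB livers (n = 5). The mean of *Lbp* per kilobase, at 24.3 ± 3.3 CPM in DIO livers (SD, n = 5), was the highest among the 10 genes in that group, while in GB-IL livers *Cd14* had the higher mean, at 101 ± 127 CPM per kilobase against 58.6 ± 30.3 for *Lbp* (SD, n = 4).

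*Tlr2*, the lipoprotein receptor whose promoter is shown above, read 3.45, 5.31, 4.02, 1.87 and 1.78 CPM in DIO livers and 13.5, 6.72, 19.3 and 4.65 CPM in GB-IL livers. In RYGB livers it read 4.54, 3.11, 4.01, 3.85 and 2.7 CPM. GB-IL 1 to 3 lay above every DIO liver and GB-IL 4 fell inside the DIO range, while all 4 GB-IL livers lay above all RYGB livers, GB-IL 4 by a narrow margin. The order differed from that of *Cd14*: GB-IL 3 was the highest liver for *Tlr2* and GB-IL 1 for *Cd14*. The difference from DIO was 1.74 ± 0.405 on the log2 scale (SE; adjusted p = 0.0343, edgeR's quasi-likelihood test), and 1.99 without GB-IL 4 (adjusted p = 0.00315, edgeR). The call was lost without GB-IL 1, 2 or 3, at adjusted p of 0.0941, 0.0581 and 0.065 (edgeR), and without any single DIO liver, at 0.0716 to 0.0971. As for *Cd14*, the loss without DIO 1 came with 0 calls among all genes tested. Over the 20 alternatives the adjusted p ran from 0.00153 to 0.116.

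*Tlr1*, whose product partners TLR2, did not share the GB-IL pattern of *Tlr2*. It read 1.78, 2.36, 1.48, 0.679 and 0.769 CPM in DIO livers, 0.84, 1.3, 6.66 and 3.8 CPM in GB-IL livers and between 1.06 and 2.46 CPM in RYGB livers. GB-IL 3 and GB-IL 4 lay above every DIO and RYGB liver, and GB-IL 1 and 2 lay inside the DIO range. The fold change between GB-IL and DIO was 2.23, with a 95% interval of 1.01 to 4.93 and an adjusted p of 0.21 (edgeR).

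*Tlr5*, the flagellin receptor, read 7.12, 12.2, 10.6, 7.98 and 9.28 CPM in DIO livers, 1.05, 1.02, 2.25 and 11.4 CPM in GB-IL livers and 7.71, 5.57, 7.43, 8.4 and 3.57 CPM in RYGB livers. GB-IL 1 to 3 were the lowest of all 14 livers, whereas GB-IL 4 lay inside the DIO range and above every RYGB liver. With all 4 GB-IL livers the log2 fold change against DIO was -1.25 ± 0.577 (SE; adjusted p = 0.212, edgeR). Without GB-IL 4 *Tlr5* was lower by a log2 fold change of -2.70 (adjusted p = 0.000568, edgeR), a ratio of 0.154. Without GB-IL 1 the log2 fold change was -0.94 (adjusted p = 0.453, edgeR). Relative to *Tlr4* and per kilobase, *Tlr5* stood at 3.76 to 9.09 in DIO livers and at 0.725, 0.564, 0.992 and 4.07 in GB-IL livers 1 to 4. In GB-IL 1 to 3 *Tlr5* was thus below *Tlr4*, and in the other 11 livers above it.

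*Myd88*, the adaptor shared by these receptors, varied little outside GB-IL. It read 19.4, 18.4, 20.2, 19.9 and 21.3 CPM in DIO livers, 36.5, 25, 28.2 and 16.8 CPM in GB-IL livers and 16.8, 17.5, 17.6, 19.6 and 18.2 CPM in RYGB livers. GB-IL 1 to 3 lay above every DIO and RYGB liver, and GB-IL 4 lay below every DIO liver. The log2 fold change against DIO was 0.42 ± 0.178 (SE; adjusted p = 0.177, edgeR), and 0.58 without GB-IL 4 (adjusted p = 0.0115, edgeR). Without GB-IL 1 the log2 fold change of *Myd88* was 0.23 (adjusted p = 0.515, edgeR). Its gene overlaps *Slc22a14* on the same strand and *Acaa1a* on the other strand. How strand was handled in the counting is not given in the sources used here. *Slc22a14* was near 0, with means of 0.0505 CPM in DIO, 0.0904 in GB-IL and 0.0829 in RYGB livers. *Acaa1a*, a peroxisomal thiolase gene, differed between GB-IL and DIO by -0.06 on the log2 scale (adjusted p = 0.907, edgeR).

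*Ticam1*, the TRIF adaptor gene, lay between 14.2 and 23.7 CPM in DIO, 17.3 and 28.7 CPM in GB-IL and 17.3 and 21.2 CPM in RYGB livers. The groups overlapped and the fold change between GB-IL and DIO was 1.08, with a 95% interval of 0.825 to 1.41 (adjusted p = 0.721, edgeR). Of the adaptor pair, only *Myd88* was called without GB-IL 4, and the difference between the adaptors was not tested.

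*Irak3*, the brake on MyD88 signalling whose promoter is shown above, read 1.47, 3.94, 1.73, 1.3 and 1.68 CPM in DIO livers, 12.2, 5.7, 20.2 and 4.09 CPM in GB-IL livers and 2.84, 1.53, 1.87, 1.9 and 5.3 CPM in RYGB livers. All 4 GB-IL livers lay above all DIO livers, GB-IL 4 narrowly above DIO 2, and RYGB 5 lay above GB-IL 4. The log2 fold change against DIO was 2.38 ± 0.502 (SE; adjusted p = 0.0297, edgeR's quasi-likelihood test), a 95% interval of 2.48- to 10.9-fold. Without GB-IL 4 it was 2.64 (adjusted p = 0.00265, edgeR). The call was lost without GB-IL 1 or 2, at adjusted p of 0.0787 and 0.0581 (edgeR), and without any single DIO liver, at 0.0709 to 0.0942. Here too the loss without DIO 1 came with 0 calls among all genes tested. Over the 20 alternatives the adjusted p ran from 0.000221 to 0.0942. The gene overlaps *Tmbim4* and the antisense gene *Gm47009*, both on the other strand. *Tmbim4* differed between GB-IL and DIO by 0.05 on the log2 scale (adjusted p = 0.871, edgeR), and *Gm47009* was not examined.

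Of the 10 genes, *Cd14* and *Irak3* did not overlap between GB-IL and DIO, where 4.17% of all genes tested did not overlap in either direction and 2.67% were higher in every GB-IL liver. Without GB-IL 4 there were 6 of 10 called, *Lbp*, *Cd14*, *Tlr2*, *Myd88* and *Irak3* higher and *Tlr5* lower, where 24.6% of all genes were called, 15.4% higher and 9.27% lower. Those 3 against 5 livers gave the same verdict for *Tlr4*, *Ly96*, *Tlr1* and *Ticam1*, which were not called with or without GB-IL 4. The plot of fold changes gives all 3 comparisons with their intervals.

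**Figure D2:**
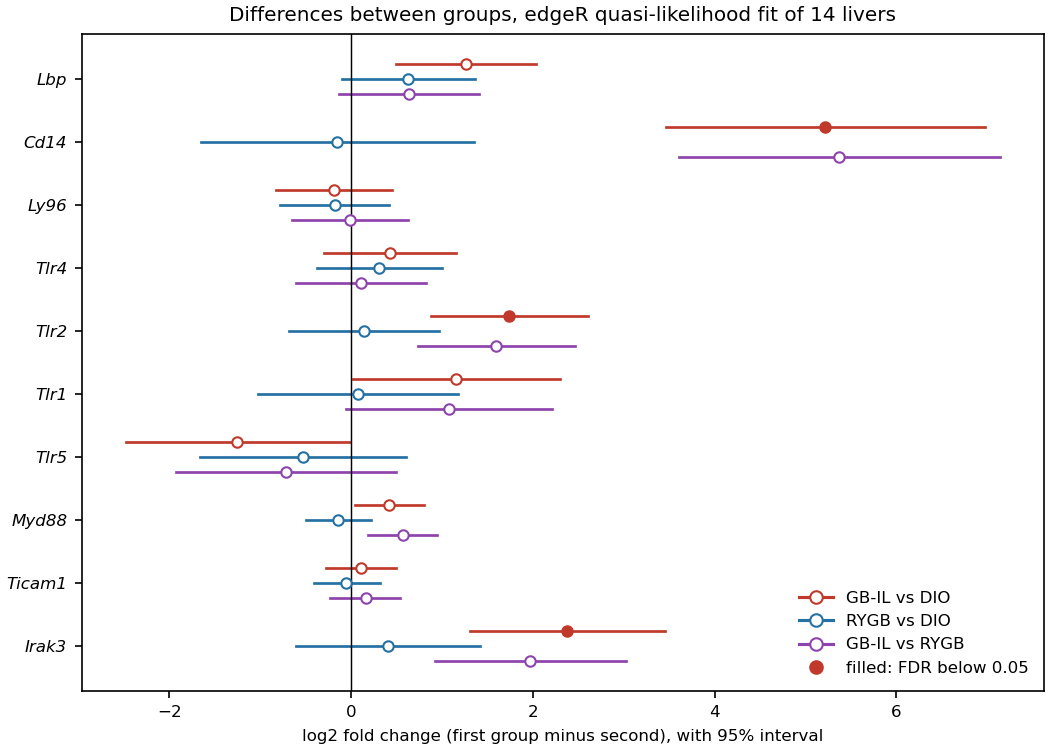
Log2 fold change of each gene between GB-IL and DIO, RYGB and DIO, and GB-IL and RYGB livers (first group minus second), with bars for the 95% interval of the edgeR fit of all 14 livers and filled points for FDR below 0.05. The 3 filled points are *Cd14* at 5.22, *Irak3* at 2.38 and *Tlr2* at 1.74, all between GB-IL and DIO.

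Between RYGB and DIO livers none of the 10 genes was called, where 0% of all genes were called by edgeR's quasi-likelihood test. At an unadjusted p below 0.05 there were also 0 of 10, against 8.71% of all genes, and DESeq2 and voom each called 0 of 10, where they called 0.681% and 11.9% of all genes. *Cd14* differed by -0.15 on the log2 scale (adjusted p = 0.963, edgeR), with a 95% interval of 0.318- to 2.54-fold, and 3 of 5 RYGB livers lay below every DIO liver. *Myd88* lay below every DIO liver in 4 of 5 RYGB livers, by 0.905-fold (adjusted p = 0.845, edgeR). *Tlr5* was lower by -0.53 on the log2 scale without passing the test (95% interval 0.317- to 1.51-fold; adjusted p = 0.81, edgeR). The largest values of *Cd14*, *Irak3*, *Lbp* and *Tlr4* among the RYGB livers all belonged to RYGB 5. That liver also had the least *Tlr5*, *Ly96* and *Tlr2* of its group. The intervals leave room for changes of moderate size, so likeness of RYGB and DIO livers was not shown.

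Between GB-IL and RYGB livers 0 of 10 genes were called, where 0% of all genes were called by edgeR's quasi-likelihood test. At an unadjusted p below 0.05 there were 4, *Cd14*, *Irak3*, *Tlr2* and *Myd88*, against 22.1% of all genes. Their log2 fold changes were 5.37 for *Cd14* (adjusted p = 0.0552, edgeR), 1.97 for *Irak3* (0.0839), 1.60 for *Tlr2* (0.0839) and 0.57 for *Myd88* (0.116). Without GB-IL 4 edgeR called 6 of 10, *Lbp*, *Cd14*, *Tlr2*, *Myd88* and *Irak3* higher and *Tlr5* lower, where 21.5% of all genes were called, 13.4% higher and 8.09% lower. With all livers DESeq2 called *Cd14*, *Irak3* and *Tlr2*, at adjusted p of 4.21e-11, 0.005 and 0.00733, where it called 5.93% of all genes. Limma's voom called *Cd14* and *Irak3*, at 0.0174 and 0.0219, where it called 0.807%. *Tlr2* was the 1 gene of the 10 that did not overlap between these groups, against 2.84% of all genes in either direction and 1.27% higher in GB-IL. This comparison and that with DIO share the 4 GB-IL livers.

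The genes did not all vary together. Over the 14 livers the Pearson correlation of log2 CPM was 0.91 between *Cd14* and *Myd88*, 0.80 between *Cd14* and *Irak3* and -0.90 between *Cd14* and *Tlr5*. Between *Cd14* and *Tlr4* it was 0.04. *Tlr2* and *Irak3* correlated at 0.87 and *Tlr4* and *Tlr1* at 0.65. These values describe 14 libraries of which GB-IL 1 to 3 carried most of the spread, and the points share depth and liver composition, so no p is given. In the plot of ratios by liver, the 3 high GB-IL livers and GB-IL 4 can be read gene by gene.

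**Figure D3:**
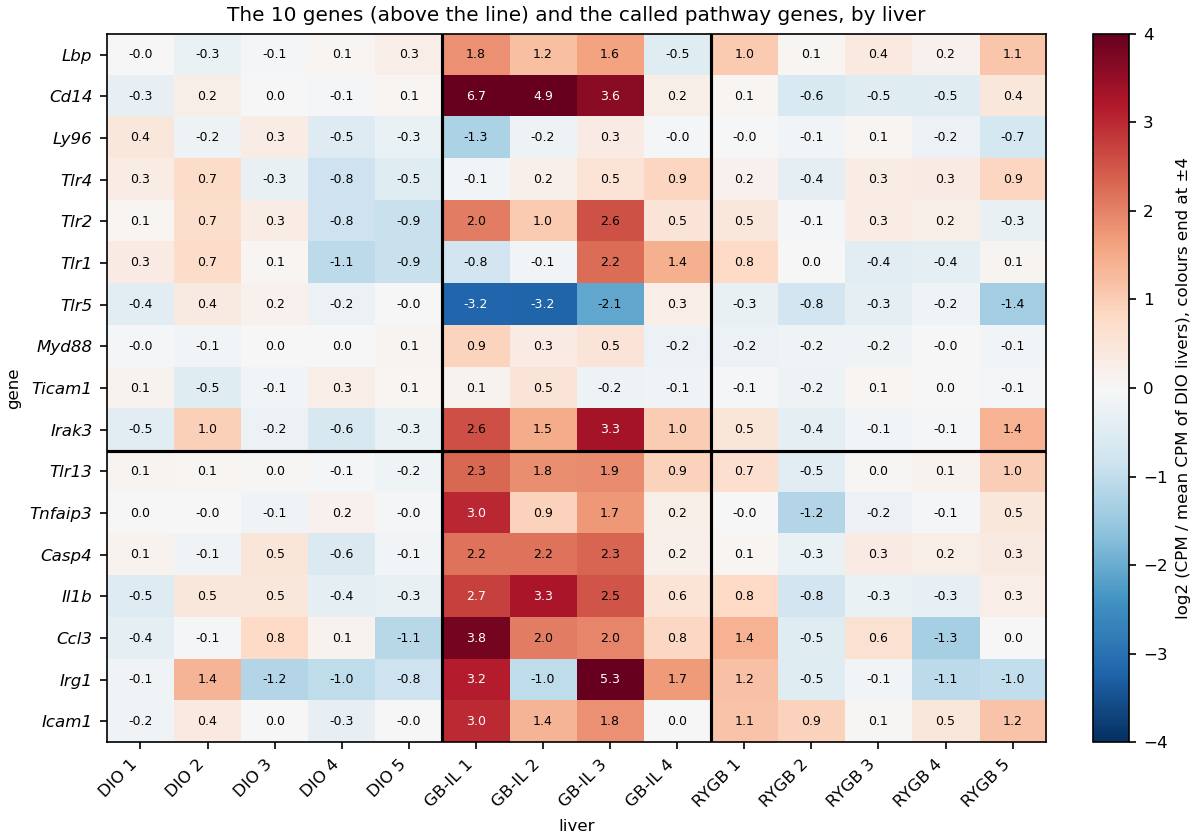
Log2 ratio of each liver's CPM to the mean CPM of the 5 DIO livers, for the 10 genes above the thick line and the 7 called genes of the wider pathway below it, with colours ending at ±4. In GB-IL 1 to 3, *Cd14* is raised and *Tlr5* is reduced, while GB-IL 4 and most RYGB livers stay near the DIO mean for both.

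The genes most like each of 4 members over the 14 livers were taken by the highest Pearson correlation of log2 CPM among 12696 genes with a mean CPM of 1 or more. For *Cd14* they were *Adam8* (0.974), a leukocyte metalloprotease gene, *Clec4d* (0.972), a C-type lectin receptor of myeloid cells, *Gtf2a2* (0.971) and *Hgsnat* (0.965). *Adam8* read 42.1, 19.4, 3.05 and 0.443 CPM in GB-IL livers 1 to 4 and 0.226 to 0.712 CPM in DIO livers, the same order as *Cd14*. *Clec4d* read 29.8, 14.4, 2.8 and 0.184 CPM in the GB-IL livers, at most 0.458 CPM in DIO and 0.485 CPM in RYGB livers. Both genes were low outside GB-IL 1 to 3, so their correlation with *Cd14* rests on those livers. *Gtf2a2* and *Hgsnat* were at 22.1 CPM or more in every liver. For *Tlr2* the most alike genes were *Rasa4* (0.958), *Syk* (0.945), a kinase of immune receptors, *Cd53* (0.931), a leukocyte tetraspanin, and *Itgax* (0.918). *Syk* was highest in GB-IL 3, at 27.9 CPM, as was *Tlr2*. For *Lbp* they were *Qsox1* (0.957), *Hp* (0.940), the acute-phase haptoglobin, *Lcn2* (0.931), a secreted iron-siderophore binder, and *Csf2rb2* (0.926). *Lcn2* read 3182, 4465, 3300.1 and 16.6 CPM in GB-IL livers 1 to 4 against 9.2 to 57.9 CPM in DIO livers. For *Tlr4* they were *Zeb2* (0.922), *Filip1l* (0.902), *Stx12* (0.855) and *Dse* (0.851), and none of them separated the groups. *Zeb2*, for one, lay between 5.94 and 15.8 CPM in DIO and between 9.09 and 17 CPM in GB-IL livers.

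The wider pathway was followed with 70 further genes of Toll-like receptor signalling in the table, of which 59 passed the filter. Of these, *Tlr9*, *Ccl3* and *Irg1* would not have passed it on the 10 DIO and RYGB livers alone, whereas all 10 member genes would. Between GB-IL and DIO livers 7 of the 59 were called, all higher, where 3.15% of all genes were called as higher, and 5 of the 56 that passed without the help of GB-IL. At an unadjusted p below 0.05 there were 22 higher, against 16.7% of all genes, and 1 lower. Their median log2 fold change was 0.50, against 0.04 for all genes. This list, too, was chosen with earlier results of these data known, so its shares are no independent test. Counted by role, the calls fell on 4 of 8 tested induced targets (2 of the 6 that passed without GB-IL), 1 of 9 other receptors, 1 of 6 inhibitors and 1 of 6 genes of endotoxin handling. None of 17 kinases and ubiquitin ligases, 8 transcription factors or 5 sorting adaptors and chaperones was called. The median log2 fold change was 1.78 for the 8 induced targets, 1.65 for the 6 of them that passed without GB-IL, and 0.01 for the kinases and ubiquitin ligases. The other 9 induced targets had too few counts to be tested, so these counts describe the tested genes and not the whole list.

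Among receptors, *Tlr13*, an endosomal sensor of bacterial ribosomal RNA, read 2.26 to 2.77 CPM in DIO livers and 12.6, 9.21, 9.46 and 4.87 CPM in GB-IL livers. All 4 GB-IL livers exceeded all DIO livers, and RYGB 5 at 5.02 CPM lay above GB-IL 4. The fold change was 3.51 (adjusted p = 0.0278, edgeR). *Casp4*, the inflammatory caspase that binds LPS inside the cell, read 1.36 to 2.8 CPM in DIO livers and 8.98, 8.98, 10.2 and 2.32 CPM in GB-IL livers. GB-IL 4 lay inside the DIO range, and the fold change was 3.77 (adjusted p = 0.0278, edgeR). *Tnfaip3*, the gene of A20, an inhibitor of NF-κB signalling, read 37.3, 8.7, 15.2 and 5.42 CPM in GB-IL livers, all above the DIO range of 4.17 to 5.15 CPM. Its fold change was 3.62 (adjusted p = 0.0365, edgeR).

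Of the induced targets, *Il1b*, the interleukin-1β gene, read 1.47 to 2.85 CPM in DIO livers and 13.9, 19.9, 12 and 3.06 CPM in GB-IL livers, with a fold change of 5.83 (adjusted p = 0.0278, edgeR). GB-IL 4 lay just above the DIO livers. *Icam1*, an adhesion molecule for leukocytes, read 74.6, 24.2, 33.5 and 9.37 CPM in GB-IL livers against 7.47 to 12.2 CPM in DIO livers, a fold change of 3.78 (adjusted p = 0.0316, edgeR). *Ccl3*, a chemokine gene, had 2 to 7 reads in DIO livers and 10 to 56 in GB-IL livers, with a fitted fold change of 5.83 (adjusted p = 0.0401, edgeR). It entered the test through the GB-IL livers in which it was high, as did *Irg1*, with 3 to 18 reads in DIO livers, so neither call supports the count of targets. *Irg1*, the itaconate-producing enzyme of activated macrophages, read 3.05, 0.169, 13.7 and 1.11 CPM in GB-IL livers, so that its 12.9-fold difference (adjusted p = 0.0427, edgeR) rested on GB-IL 1 and 3. The pathway calls fell to 0 when any single DIO liver, GB-IL 1 or GB-IL 2 was left out, and stayed at 7 without GB-IL 3. Without DIO 1, edgeR called 0 of all genes tested, so that loss was not particular to the pathway.

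The 5 pathway genes with the next smallest p in this comparison missed the threshold. *Msr1*, a scavenger receptor that takes up lipid A, differed by 2-fold (adjusted p = 0.0586, edgeR). *Aoah*, the acyloxyacyl hydrolase that inactivates LPS, differed by 3.37-fold (0.062). The AP-1 genes *Jun* and *Fos* differed by 3.66-fold (0.0646) and 3.1-fold (0.0999), and the monocyte chemokine *Ccl2* by 3.12-fold (0.0883). Without GB-IL 4 the pathway calls numbered 19, all higher, where 24.6% of all genes were called and 15.4% as higher.

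**Figure D4:**
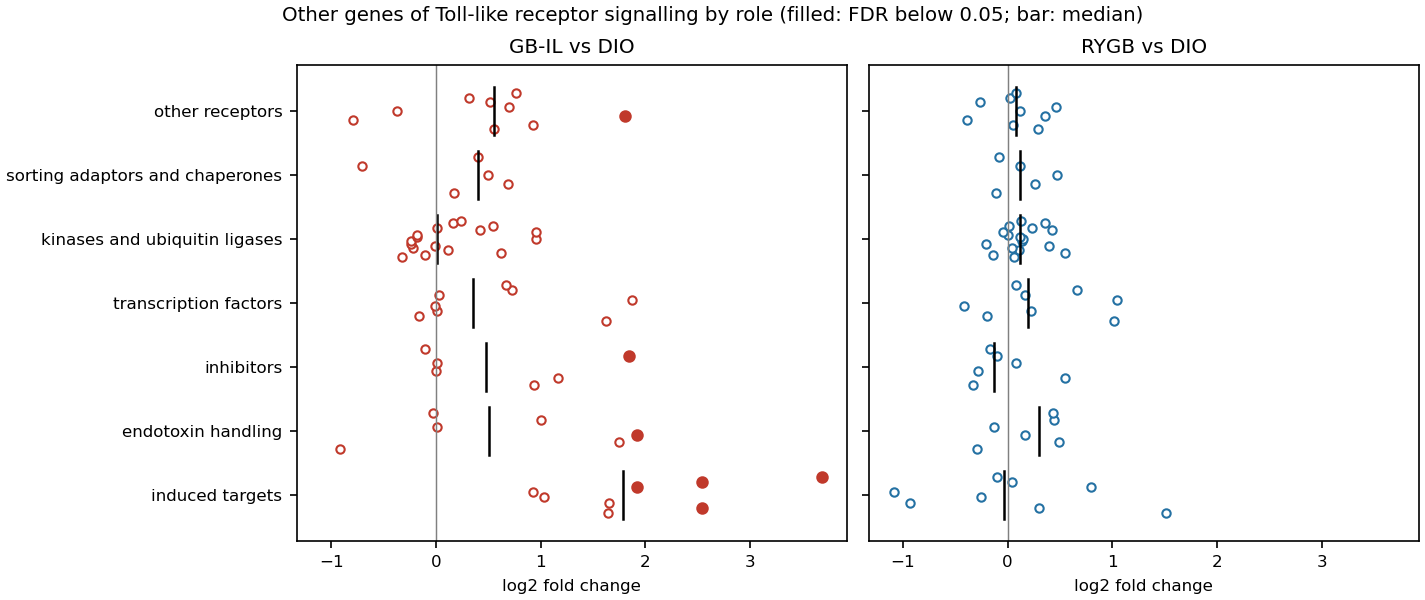
Log2 fold change of the 59 tested pathway genes by role, between GB-IL and DIO livers at left and RYGB and DIO livers at right, with filled points for FDR below 0.05 and a bar at the median of each role. The induced targets have a median of 1.78 in GB-IL livers, where 4 of 8 are filled, *Ccl3* and *Irg1* among them, and the kinases and ubiquitin ligases a median of 0.01 with none filled.

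Between RYGB and DIO livers 0 of 59 pathway genes were called, against 0% of all genes, and 3 had an unadjusted p below 0.05, against 8.71% of all genes. DESeq2 called 0 of them, against 0.681%, and voom 5, against 11.9%. The smallest p belonged to *Ccl2*, 2.86-fold higher without passing the test (adjusted p = 0.445, edgeR). It was followed by *Traf3*, a ubiquitin ligase on the interferon branch, at 1.28-fold (0.547), *Cxcl10*, an interferon-induced chemokine, at 0.469-fold (0.571), and *Irak2*, a kinase of the MyD88 branch, at 1.32-fold (0.573). Between GB-IL and RYGB livers edgeR called 0 of 59, against 0% of all genes, with 19 at an unadjusted p below 0.05, against 22.1%. DESeq2 called 10 there, against 5.93% of all genes, and voom 6, against 0.807%. The smallest p values there were those of *Il1b* at 5.67-fold (adjusted p = 0.0552, edgeR), *Casp4* at 3.36-fold (0.0645), *Tlr13* at 2.75-fold (0.0645) and *Tnfaip3* at 3.89-fold (0.0797). Without GB-IL 4 there were 16 called, 14 of them higher, where 21.5% of all genes were called and 13.4% as higher.

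Several of these genes are carried by leukocytes, so marker genes of the cell types a liver sample can hold were measured in the same libraries, as summed CPM of the library total without TMM scaling. In whole liver more cells of a type and more RNA per cell cannot be told apart. The 10 Kupffer cell markers summed to 431 to 722 CPM in DIO livers, to 473, 797, 1927 and 893 CPM in GB-IL livers 1 to 4 and to 461 to 1071 CPM in RYGB livers. GB-IL 1, with the most *Cd14*, lay inside the DIO range for this sum, which can hide single markers that moved apart. Between GB-IL and DIO 8 of the 10 markers had a log2 fold change of 0.12 or more and 2 one of 0.00, with a median of 0.74 and 4 at an unadjusted p below 0.05. Of them 1, *Marco*, was called, at 3.13 (adjusted p = 0.0461, edgeR), where 3.26% of all genes were called. *Clec4f* and *Cd163* both stood at 0.00 (adjusted p = 0.998 and 0.996, edgeR). *Clec4f* ran from 129 to 202 TMM-scaled CPM in DIO and from 42.2 to 280.3 in GB-IL livers. *Marco* ran from 12.8 to 58.8 and from 109 to 542.

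The 10 markers of recruited monocytes and macrophages summed to 65.2 to 139 CPM in DIO livers, to 493, 547, 611 and 163 CPM in GB-IL livers and to 87.2 to 190.0 CPM in RYGB livers, and 5 of 10 were called as higher in GB-IL than in DIO (4 of the 8 that passed the filter without GB-IL), against 3.15% of all genes. The GB-IL sums lay above all DIO sums, and RYGB 1 lay above GB-IL 4. Those called were *Itgam*, *Lyz2*, *Cd68*, *Trem2* and *Gpnmb*. *Ly6c2*, *Ccr2*, *Cx3cr1*, *Itgax* and *Fcgr1* were not (adjusted p = 0.0816, 0.239, 0.343, 0.07 and 0.127, edgeR). *Lyz2* held much of the sum, with 48.6 to 102 TMM-scaled CPM in DIO and 121 to 531 in GB-IL livers. The 12 neutrophil markers summed to 5.73 to 11.2 CPM in DIO livers, to 115, 52.9, 467 and 7.08 CPM in GB-IL livers and to 8.29 to 163 CPM in RYGB livers, and 5 of 8 tested were called as higher in GB-IL than in DIO. Of those 8, *Ngp*, *Ltf*, *Retnlg* and *Mmp8* passed the filter only with the GB-IL livers, and of the other 4 edgeR called 3. *Ly6g*, the defining neutrophil surface marker, was at 0 in all DIO livers and reached 0.636 CPM in GB-IL. RYGB 5 held 163 CPM of neutrophil markers with *Cd14* at 6.37 CPM, while GB-IL 2 held 52.9 CPM with *Cd14* at 145 CPM. The 8 cholangiocyte markers summed to 47.8 to 76.5 CPM in DIO livers, to 316, 255, 222 and 72.4 CPM in GB-IL livers and to 76 to 95.9 CPM in RYGB livers, the same order over the GB-IL livers as *Cd14*.

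By exact two-sided permutation tests over livers the recruited monocyte and macrophage sum differed between GB-IL and DIO by 4.63-fold (p = 0.0159), the cholangiocyte sum by 3.74-fold (p = 0.0317) and the neutrophil sum by 20.9-fold (p = 0.0476). Their adjusted p over the 27 marker tests was 0.143, 0.143 and 0.184. With 4 against 5 livers the smallest p this exact test allows is 0.0159, so that adjusted values say little about these sums. The part of these cell types in the differences of *Cd14*, *Tlr2* and *Irak3* was not tested.

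**Figure D5:**
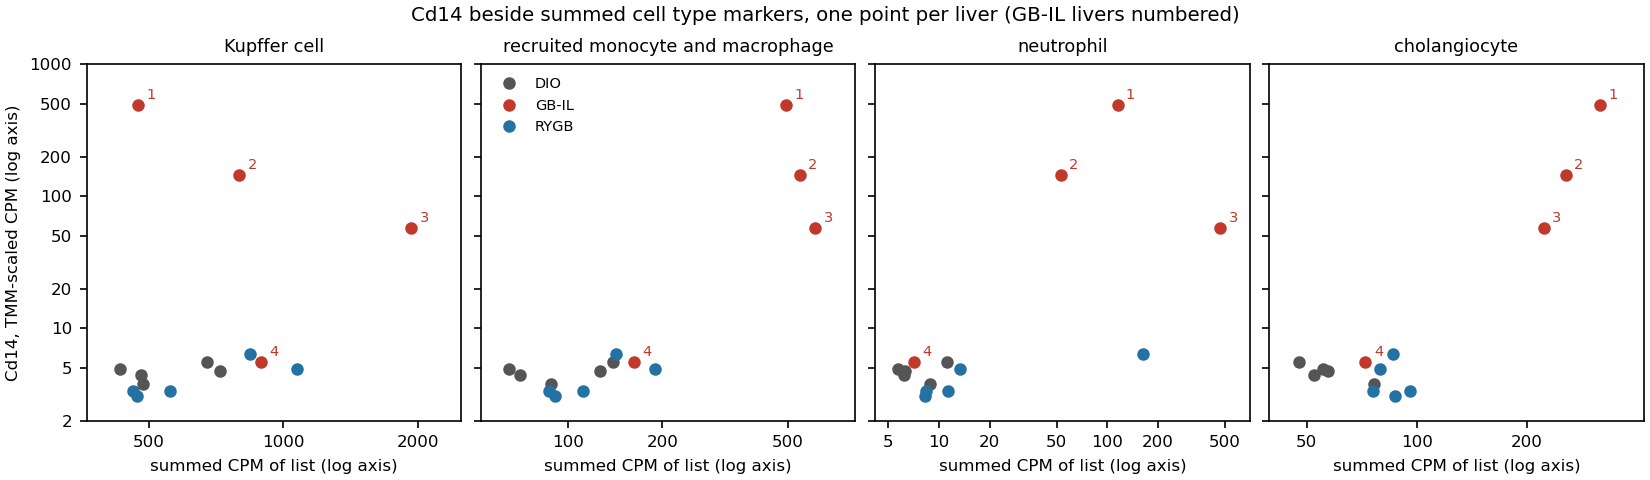
*Cd14* CPM of each liver (log axis) against the summed CPM of the markers of Kupffer cells, recruited monocytes and macrophages, neutrophils and cholangiocytes (log axes), with GB-IL livers numbered. GB-IL 1 has 493 CPM of *Cd14* at 473 CPM of Kupffer cell markers, within the DIO range of 431 to 722 CPM.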

How the data were processed

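Polyadenylated or total RNA of 14 mouse livers was sequenced by the authors on an Illumina instrument. The labels name a stranded mRNA kit and a total RNA kit without saying which liver had which, so the kit and the group cannot be told apart here. The study's methods instead describe total RNA amplified with a NuGEN Ovation kit to double-stranded cDNA, then sheared for TruSeq libraries. Which description holds for which liver is not stated. Reads were aligned by the authors with TopHat2 to mm10, and HTSeq counted them per gene (names from the submitters' processing notes, which also list hg19; their versions, the annotation and the handling of strand are not stated in the sources read here). The deposited values are raw counts for 25212 Ensembl genes, of which 24701 matched GENCODE M21, and no row lacks a gene name.

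From these counts, R 4.3.3 with edgeR 4.0.16 scaled libraries by TMM, kept 14252 genes with filterByExpr and fitted the quasi-likelihood model to all 14 livers with group means. P-values were adjusted by the Benjamini-Hochberg method over all tested genes, and FDR 0.05 was the threshold. DESeq2 1.42.0, limma 3.58.1 (voom with sample quality weights), DESeq2-type size factors, no filter on low counts, the compared groups alone, a replicate block and leaving out each liver were tried as alternatives. The scripts were tested on simulated counts. CPM per kilobase used the exon length of GENCODE M21. Correlations used log2(CPM + 0.1). Marker sums were compared by exact permutation over livers (scipy 1.17.1). Totals of 18223135 to 28656631 counts make counting error small for *Lbp* and large for *Tlr4* and *Tlr1*. Promoters came from RefSeq tables.

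The 10 genes, the pathway list and the marker lists were chosen with earlier results of these data known. Of the pathway list, the genes named are the 12 with the smallest p between GB-IL and DIO and the 4 with the smallest p in each other comparison. The genes most like a member are the 4 with the highest correlation, for *Cd14*, *Tlr4*, *Tlr2* and *Lbp*. Some genes were named after their values were seen. They are the induced targets named at low counts in the closing section, *Marco*, *Clec4f*, *Cd163* and the recruited monocyte and macrophage markers. They also include the markers named for failing the filter without GB-IL and the neighbouring genes.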

Additional observations from a re-analysis of the deposited data

Results flagged for a closer look

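Of 30 sets of levels checked, 1 for each gene and group with 4 or more livers, 2 held a liver far from the rest, and chance alone flags about 1 in 20 such sets. *Tlr5* in GB-IL 4 was 11.4 CPM while the nearest other GB-IL liver had 2.25 CPM, a gap of 0.881 of the group's range against a critical value of 0.829. *Irak3* in DIO 2 was 3.94 CPM while the nearest other DIO liver had 1.73 CPM, a gap of 0.837 of the range against a critical value of 0.71. DIO 2 also had the highest *Tlr4*, *Tlr2*, *Tlr1*, *Tlr5* and *Cd14* of the DIO livers, at 3, 5.31, 2.36, 12.2 and 5.56 CPM, and the least *Ticam1*, at 14.2 CPM. Without DIO 2 the difference of *Irak3* between GB-IL and DIO was 2.75 on the log2 scale (adjusted p = 0.0716, edgeR; 0.000221 to 0.0942 over the alternatives).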

How the results depend on the processing

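Between GB-IL and DIO livers the called genes numbered 465 with edgeR, 1292 with DESeq2, 0 with the compared groups alone and 1 with the replicate block, and 0 to 3572 with 1 liver left out. The members called numbered 3, 5 with voom, 0 with the compared groups alone, 0 with the block and 0 to 6 with 1 liver left out. The pathway genes called numbered 7, 12 with DESeq2, 0 with the compared groups alone, 0 with the block and 0 to 19 with 1 liver left out. Between RYGB and DIO, edgeR called 0 genes, DESeq2 97, voom 1690 and the compared groups alone 33, with 0 to 5 when 1 liver was left out, and voom called 5 pathway genes. Between GB-IL and RYGB, edgeR called 0 genes, 51 without a filter on low counts, DESeq2 845, voom 115, and 0 to 3120 with 1 liver left out. The members called there numbered 1, 3 and 2 (no filter, DESeq2, voom) and 0 to 6 with 1 liver left out, and the pathway genes 1, 10 and 6, and 0 to 16.

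Replicate numbers in the labels did not pair the livers: same-numbered deviations correlated at -0.381 to 0.008 between DIO and GB-IL, -0.228 to 0.021 between DIO and RYGB and 0.008 to 0.381 between GB-IL and RYGB. With the replicate block *Cd14* differed between GB-IL and DIO by 4.52 on the log2 scale (adjusted p = 0.0679, edgeR).

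Of 600 values of the 10 genes over 20 settings, 535 kept direction and side of the threshold, 28 lost the call, 19 gained it and 18 changed sign, and no called value changed sign. Under voom the log2 fold change of *Ly96* became 0.22, 0.02 and 0.20 for GB-IL against DIO, RYGB against DIO and GB-IL against RYGB, and that of *Ticam1* became -0.13 (GB-IL against DIO) and -0.03 (GB-IL against RYGB). Leaving out 1 liver turned *Ly96* to 0.03 (GB-IL against DIO) and to 0.21, 0.03 and 0.06 (GB-IL against RYGB), *Ticam1* to -0.08, 0.02 and -0.03 (in order, GB-IL against DIO, RYGB against DIO and GB-IL against RYGB), *Tlr2* to -0.01 and *Tlr1* to -0.09, -0.07 and -0.15 (RYGB against DIO), and *Tlr4* to -0.07 and -0.03 (GB-IL against RYGB). Their leave-one-out ranges were -0.41 to 0.03 and -0.23 to 0.21 for *Ly96*, -0.08 to 0.20, -0.14 to 0.02 and -0.03 to 0.25 for *Ticam1*, -0.01 to 0.39 for *Tlr2*, -0.15 to 0.35 for *Tlr1* and -0.07 to 0.27 for *Tlr4*. The cause was not tested. *Tlr4*, *Tlr1* and *Ly96* had few reads, with 12 as the lowest count of *Tlr1*, and small differences in them were not detectable. The parts of read depth and of spread between livers in this were not tested.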

Other observations

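Of the induced targets of the pathway, *Cxcl2*, *Nos2*, *Tnf*, *Il6*, *Il10*, *Il12b*, *Ccl4*, *Ifnb1* and *Ptgs2* had too few counts to be tested. *Cxcl2*, a neutrophil chemokine, had 260 reads in GB-IL 1 and at most 10 in any DIO liver. *Nos2*, the inducible nitric oxide synthase, had 80 reads in GB-IL 3 and at most 5 in any DIO or RYGB liver. *Tnf* had 37 reads in GB-IL 3 and at most 11 in any DIO liver. *Ifnb1*, the interferon-β gene of the TRIF branch, had 0 reads in all DIO and GB-IL livers and 1 read in the RYGB group. *Il6* did not exceed 4 reads in any liver.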
